A study of Mus musculus with 2 samples.

Results

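Peak-dense windows were 100 kb stretches of the mouse genome in which peaks of a Dux chimera lay close together. Chromosomes 1 to 19 were cut into 100 kb windows from position 0, and every window with 8 or more peak summits was kept with all its peaks. Of 19001 windows with at least 1 summit, 341 met this rule, which is 1.79%. They held 3087 of the 49034 peaks on these chromosomes, or 6.3%, out of 51356 peaks in the whole list. The windows were chosen by the measured summit count of the antisera library against its control, so summit counts, gaps between summits, pileups and fold enrichments of the members are given as a description and carry no test.

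The peaks came from C2C12 cells, an established mouse myoblast line, in which a doxycycline-inducible MMH transgene had been selected with puromycin. MMH joins the codon-altered mouse Dux N-terminus, with its homeodomains, to the codon-altered C-terminus of human DUX4, and the cells were 1 monoclonal line induced with 2 ug/ml doxycycline for 18 h. 1 chromatin immunoprecipitation library was made with the antisera MO488 and MO489, which recognise the human C-terminus, and the control was 1 library of the same induced cells, labelled with an HA antibody in the sample label and described with a GFP antibody in the design text. With 1 library per group and 1 clone, no value below has a replicate check, and intervals are at 95% and cover counting error only.

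Dux is a homeobox transcription factor of the early cleavage embryo that binds DNA through its homeodomains and turns on genes and repeats of that stage. Several gene families known for expression at that stage, such as *Zscan4*, *Tdpoz* and *Usp17l*, sit in the mouse genome as tandem arrays of near-identical copies. In mouse embryonic stem cells the miR-344 microRNA cluster is a known Dux target. Reads from near-identical copies can be placed on any of them. The sources used here do not say how such reads were mapped, which leaves it uncertain, in every array described here, how much of a pileup belongs to each copy.

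Of 32817 RefSeq promoters (GRCm38.p6, 250 bases before to 50 after the gene start), 382 overlapped a dense window and 26 of them held a summit of a dense window. The 121 bases centred on the summit are shown for 6 of these, the 5 Prame-like and *Zscan4* promoters and the promoter of *Gm21761*, which had a summit pileup of 315, because they carry tall peaks or belong to arrays. Each is on the strand of its gene, and capitals mark TGATT or its other-strand reading AATCA.
Zscan4c, chr7:11005497-11005617, plus strand: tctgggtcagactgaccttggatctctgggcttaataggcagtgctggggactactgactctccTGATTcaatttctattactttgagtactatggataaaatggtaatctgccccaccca
Pramel24, chr4:143719234-143719354, plus strand: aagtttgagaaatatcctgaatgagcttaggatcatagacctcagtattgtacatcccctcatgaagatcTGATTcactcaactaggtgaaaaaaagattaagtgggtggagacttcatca
Pramel11, chr4:143900474-143900594, minus strand: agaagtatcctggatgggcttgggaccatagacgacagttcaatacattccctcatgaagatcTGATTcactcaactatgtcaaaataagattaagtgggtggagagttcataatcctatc
Pramel32, chr4:88634235-88634355, minus strand: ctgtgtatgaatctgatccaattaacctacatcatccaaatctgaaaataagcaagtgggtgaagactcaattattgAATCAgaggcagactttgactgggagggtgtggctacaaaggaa
Pramel23, chr4:143702800-143702920, minus strand: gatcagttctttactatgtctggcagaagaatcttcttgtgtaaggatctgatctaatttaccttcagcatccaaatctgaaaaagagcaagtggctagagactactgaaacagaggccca
Gm21761, chr13:119913584-119913704, minus strand: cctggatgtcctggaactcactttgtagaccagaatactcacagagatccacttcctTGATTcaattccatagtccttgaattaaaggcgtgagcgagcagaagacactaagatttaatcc

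The marked letters lay close to the summit in 5 of these 6 stretches. The centre of TGATT or AATCA was 6 bp from the summit at *Zscan4c*, 12 bp at *Pramel24*, 5 bp at *Pramel11*, 19 bp at *Pramel32* and 1 bp at *Gm21761*. The *Pramel23* stretch, whose summit had the lowest pileup of the 6, held neither reading. The promoters of *Pramel24* and *Pramel11* shared 261 of 300 bases, or 87.0%, so that these 2 stretches are not independent examples.

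Over whole promoters, TGATT or AATCA stood in 22 of the 26 with a dense-window summit, or 84.6%, against 37.0% of all 32817 promoters. No such share was counted for promoters with a summit elsewhere, so this value cannot be read as particular to dense windows. The 26 include neighbouring Prame-like and histone promoters, which are not independent examples. The longer word TGATTNAA, read on both strands, stood in 6 of the 26 (23.1%, exact binomial interval 8.97 to 43.6%) against 19.9% of the 351 promoters with a summit elsewhere and 2.87% of all promoters. It contains TGATT, so the counts overlap. The word GATTNAATC, read on both strands, stood in 1 of the 26 (3.85%, interval 0.0973 to 19.6%), against 12.8% of the 351 promoters with a summit elsewhere and 0.268% of all promoters. These matches describe letters in the windows searched and were chosen with the peaks in view.

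The miR-344 microRNAs are shown because their hairpins sit in a pair of adjoining dense windows on chromosome 7 (chr7:61600001-61700000 and chr7:61700001-61800000). Of 13 hairpins in the RefSeq table, all on the minus strand, 7 lay in these windows. The mature sequences of those 7 are printed with the seed, bases 2 to 8, in capitals.
miR-344d-3p: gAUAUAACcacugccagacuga
miR-344e-3p: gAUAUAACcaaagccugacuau
miR-344h-3p: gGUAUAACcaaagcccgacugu
miR-344b-3p: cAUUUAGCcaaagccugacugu
miR-344d-1-5p: aGUCAGGCugcuggcuauacacca
miR-344d-3-5p: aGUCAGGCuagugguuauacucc
miR-344b-5p: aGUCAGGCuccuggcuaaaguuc
miR-344d-2-5p: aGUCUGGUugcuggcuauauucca
miR-344e-5p: cAGGCUUCuggcuauauucc
miR-344h-5p: cAGGCUUCuggcuauauucc

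By seed these fell into small groups. AUAUAAC was shared by miR-344d-3p, which *Mir344d-1*, *Mir344d-2* and *Mir344d-3* all encode, and by miR-344e-3p. GUCAGGC was shared by 3 of the 5p products above and by the 5p products of *Mir344c*, *Mir344* and *Mir344g*, whose hairpins lie outside the dense windows. AGGCUUC was shared by miR-344e-5p and miR-344h-5p, which are identical over their whole length.

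The 341 windows were mostly just past the limit. There were 169 windows with 8 summits, 85 with 9, 47 with 10, 28 with 11 and 12 with 12 or more, up to 25. Just outside the limit stood 318 windows of 7 summits with 2226 peaks. Peaks in windows of 8 summits had a median pileup of 43 antisera fragments, and those in windows of 7 summits had 45. The share with a pileup of 100 or more was 19.2% in windows of 8 and 18.3% in windows of 7, and the share of summits inside a gene was 48.7% in windows of 8 and 48.6% in windows of 7. The limit therefore cuts through a range with no step in these values. Which peaks are members also depends on the placement of the grid: moving all windows by 50 kb gave 3238 peaks in dense windows, of which 1429, or 46.3% of the 3087 members, were shared. A limit of 10 summits kept 970 peaks, or 31.4% of the members.

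**Figure D1:**
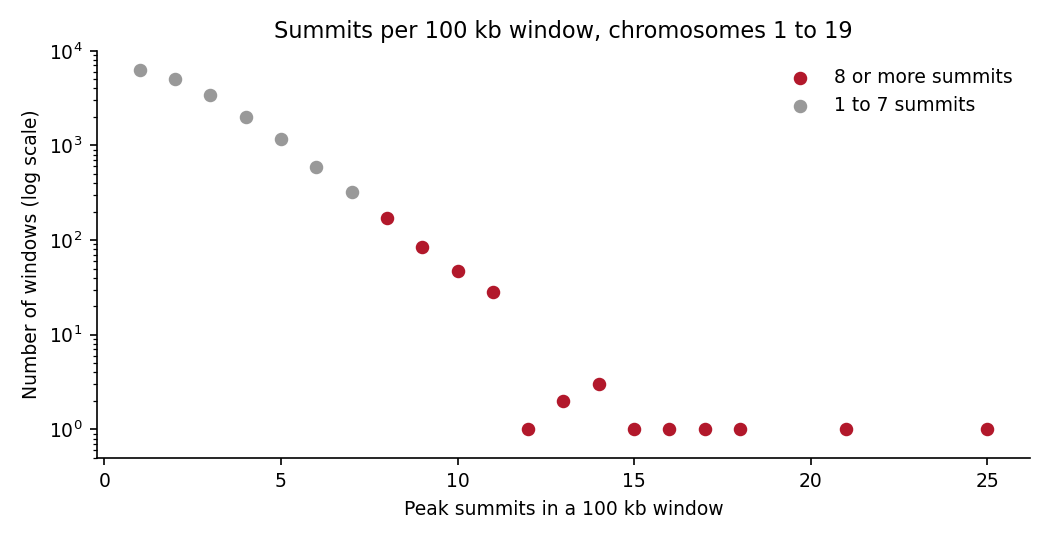
Number of 100 kb windows on chromosomes 1 to 19 (y axis, log scale) by the number of peak summits they hold (x axis). Red points are the 341 dense windows and grey points the windows of 1 to 7 summits; the red points thin out from 169 windows of 8 summits to 1 window of 25.

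Pileup is the number of antisera fragments over a summit, and fold enrichment is the pileup plus 1 over the local background plus 1. The median pileup was 44 (interval 42 to 45) in dense windows and 41 in the remaining windows, and the median fold enrichment was 8.38 in dense windows and 8.02 in the remaining windows. The difference was in the upper range. The 90th percentile of pileup was 169 in dense windows and 122 in the remaining windows, while the 10th percentile was 23 in both. A pileup of 100 or more was found at 629 dense-window peaks (20.4%) against 6573 of the others (14.3%), and a pileup of 300 or more at 109 (3.53%) against 468 (1.02%). Without the high-background window at the start of chromosome 9, the dense-window counts were 618 (20.2%) and 99 (3.23%). The share of peaks at 100 or more was 11.4% in windows of 1 summit, 18.3% in windows of 7 and 30.7% in windows of 12 or more.

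**Figure D2:**
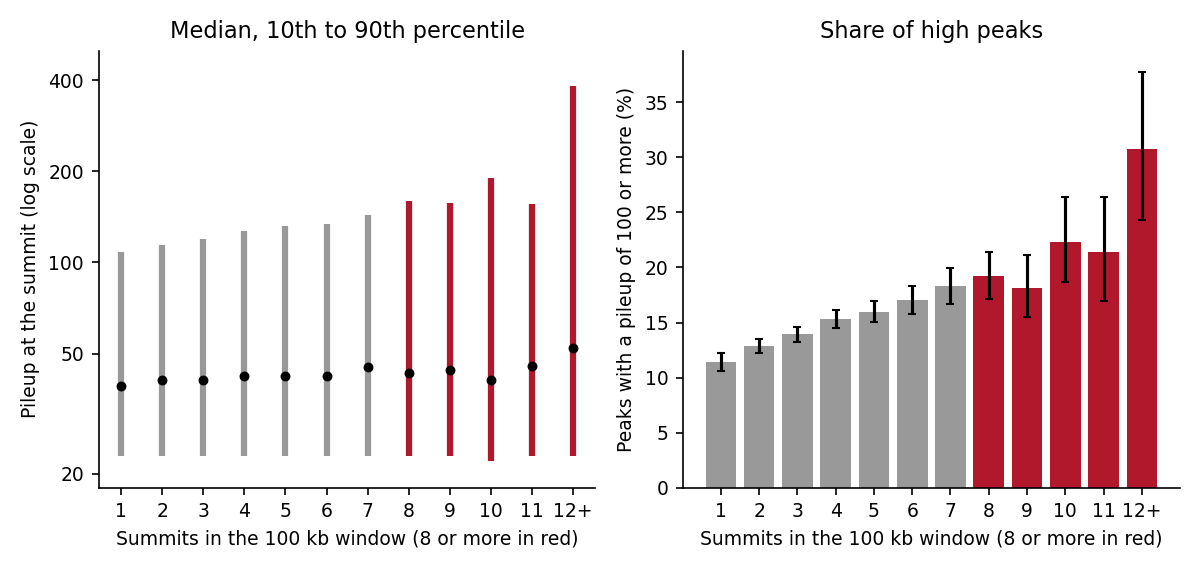
Left, median pileup (points) with the 10th to 90th percentile (lines, log scale), and right, share of peaks with a pileup of 100 or more in percent with 95% exact binomial intervals, both by the number of summits in the window. Red marks dense windows; medians stay between 39 and 52 while the share of high peaks goes up from 11.4% in windows of 1 summit to 30.7% in windows of 12 or more.

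Gene content was not used by the rule. Summits lay inside a gene span for 46.9% of dense-window peaks (interval 45.2 to 48.7%) and 48.5% of the remaining peaks. Inside a protein-coding gene lay 36.3% of dense-window peaks and 40.2% of the remaining peaks. Peaks of 1 window share their genes, so these intervals are narrower than the true uncertainty and no test was made over peaks. Gaps between summits are set in large part by the rule and are given as a description. The median gap between neighbouring summits of a window was 6134 bp in dense windows and 14546 bp in the remaining windows. Gaps of 1.5 kb or less, which may be parts of 1 binding region, made up 12.9% of gaps in dense windows and 6.37% in the remaining windows.

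A dense window was rarely made of equally tall peaks. The summed pileup of a window had a median of 613, and the tallest peak supplied a median of 31.1% of it (13.3 to 74.1%). The tallest peak of a window had a median pileup of 186. In 74 windows at least 1 peak reached 300, and in 49 windows no peak reached 100. At one end, 731 of the summed pileup of 986 in the window of *A2m*, a protease inhibitor of blood plasma, came from 1 of its 8 summits. At the other end, the window of *Baz2b*, *Marchf7*, *Cd302* and *Ly75* on chromosome 2 had 8 summits of 22 to 53.

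Dense windows were mostly isolated: 281 had no dense neighbour, 27 runs had 2 windows and 2 runs had 3. The run at chr10:102400001-102700000, with *Nts* (the neuropeptide neurotensin) and *Rassf9*, held 25 summits with a summed pileup of 1893. The run at chr16:55300001-55600000, with *Zpld1*, held 26 summits with a summed pileup of 1803. Among the runs of 2 windows, the largest summed pileup was 4502 over 26 summits at the miR-344 hairpins.

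Gene arrays on chromosome 3 gave the window with most summits. The window chr3:93800001-93900000 held 25 summits with pileups of 18 to 1922 and a median of 51, and the median gap between them was 2111 bp. It overlaps *Tdpoz3*, a gene of the TD and POZ domain family expressed in early embryos, and the pseudogene *Gm9113*, and of 8 *Tdpoz* genes *Tdpoz3* alone overlapped a dense window. Its tallest peak, at chr3:93818785-93820435, had a pileup of 1922 (interval 1837 to 2010) and a fold of 191, and lay 6302 bp from *Tdpoz3*. Apart from it, 3 peaks reached 100, at 383, 290 and 264. The local background exceeded the lowest level of the list, 4.01 fragments (the floor), at 20 of the 25 summits and went up to 14.6, and the part of this in the density of peaks was not tested.

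The adjoining windows at chr3:94100001-94300000 held 24 summits with a summed pileup of 3423 and overlap *Spopfm1*, *Spopfm2* and *Spopfm3*, relatives of the ubiquitin ligase adaptor Spop. Only *Spopfm2* is annotated as protein-coding there. The tallest peak had a pileup of 678 (interval 628 to 731) and lay 951 bp below the lower end of *Spopfm1*. Further peaks of 468, 405, 356 and 316 lay between the annotated copies or inside *Gm36010*. The lowest peak of these windows, with a pileup of 17, lay 3979 bp from *Gm5543*.

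The copies of this region, which were chosen after their values were seen, had summits at repeated positions. Of the 5 spans of about 3.8 kb, *Gm5852*, *Gm9121*, *Gm5542* and *Spopfm2* each had a summit 1064 to 1247 bp inside their upper end and another 920 to 1083 bp beyond it, whereas *Gm9116* had 1 summit 867 bp from its lower end. Of the spans of about 3.1 kb, *Gm9131*, *Spopfm3* and *Spopfm1* each had 3 summits. These were 644 to 951 bp below the lower end, 993 to 1088 bp inside it and 949 to 995 bp beyond the upper end. *Gm9113* had summits 1000 bp below and 1028 bp beyond its ends. Its inner summits were 2058 and 2853 bp from its lower end, or 1068 and 273 bp inside its upper end. *Gm9124* had 1 summit, 655 bp below its lower end, and 1 further span of 2893 bp had none.

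The pileup was far from equal among the copies at some shared positions and similar at others. Below the lower end it was 678 at *Spopfm1*, 193 at *Gm9131*, 30 at *Spopfm3* and 28 at *Gm9124*. *Gm9113* is listed apart, because its inner summit of 78 lay 1068 bp inside the upper end, not the lower. The spans carry no strand, so its positions cannot be matched to the others by end. It had 57 below the lower end, 290 beyond the upper end and 18 at its other inner summit. Beyond the upper end of the longer copies it was 519 at *Gm5542*, 150 at *Spopfm2*, 86 at *Gm9121* and 55 at *Gm5852*. Inside the longer copies, near the upper end, it was 107 at *Gm9121*, 78 at *Gm5542*, 51 at *Spopfm2* and 27 at *Gm5852*. Similar values stood only in the shorter copies other than *Gm9113*. Inside them it was 59 at *Spopfm1*, 57 at *Spopfm3* and 52 at *Gm9131*. Beyond their upper end it was 40 at *Spopfm1*, 49 at *Spopfm3* and 48 at *Gm9131*. Of the copies with a summit, only *Spopfm2*, *Gm9113*, *Gm9131*, *Spopfm3* and *Spopfm1* lay in dense windows.

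**Figure D3:**
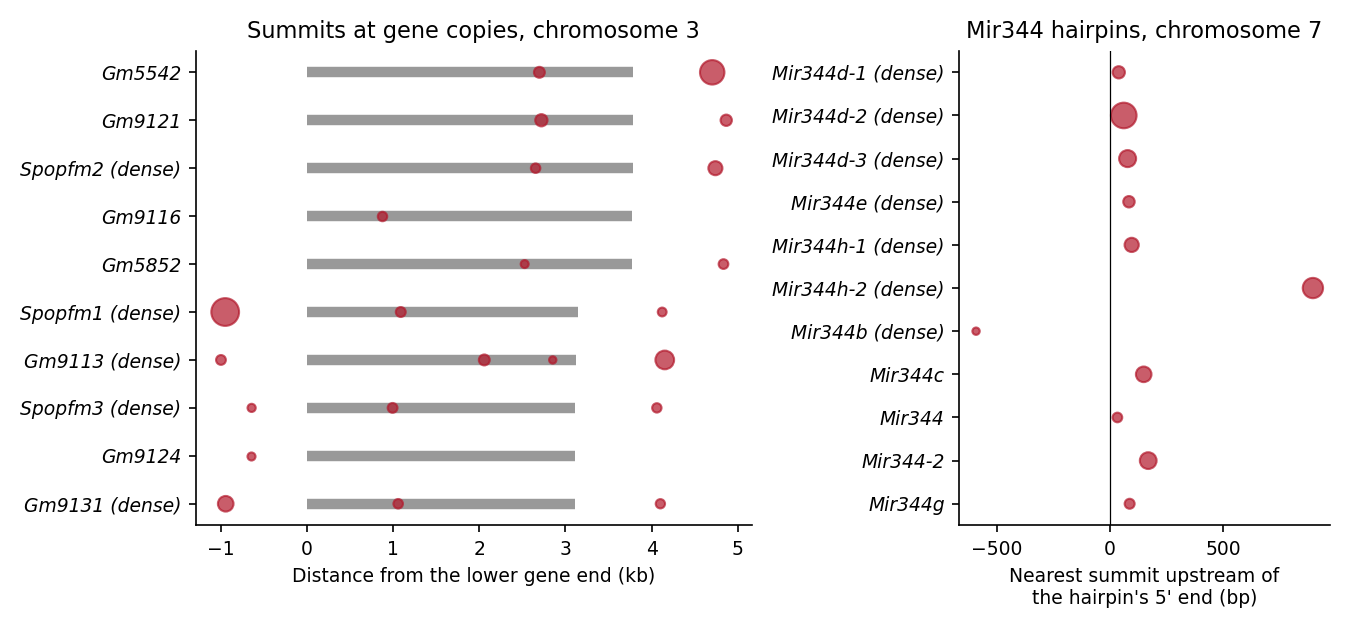
Left, summits (red, area by pileup) at gene and pseudogene copies of chromosome 3, in kb from the lower end of each copy, with the copy's span as a grey bar. Right, distance in bp of the nearest summit upstream of the 5′ end of each Mir344 hairpin with a summit within 1000 bp; "dense" marks members of dense windows, and 7 hairpins have a summit 32 to 95 bp upstream.

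The Prame-like genes, a family of leucine-rich repeat proteins with many members expressed in oocytes and early embryos, filled several of the densest windows. Of 49 protein-coding members, 9 overlapped a dense window (18.4%), in 4 windows on chromosome 4, against 363 of 20661 protein-coding genes in all, or 1.76%. Their other 40 members lay outside dense windows. Members within 1 window are neighbours in a tandem array, so they are not independent counts.

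In chr4:143900001-144000000, 18 summits with pileups of 19 to 419 lay around *Pramel11*, *Pramel16* and *Pramel14*, and none was inside a gene. Its tallest peak, 419 (interval 380 to 461), lay 154 bp upstream of the start of *Pramel11*, and the next, 322, lay 4204 bp from *Pramel16*. In chr4:143700001-143800000, 17 summits with pileups of 18 to 428 lay at *Pramel23*, *Pramel24* and *Pramel25*. The tallest there, 428 (interval 388 to 471), lay 157 bp upstream of *Pramel24*, against 53 at 149 bp upstream of *Pramel23*. The promoter summits of these 3 genes stood within 8 bp of the same distance from the start while their pileups were 428, 419 and 53.

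*Pramel18* and *Pramel19* had the tallest Prame-like peaks. Their window, chr4:101900001-102000000, held 15 summits with pileups of 17 to 1097, all within 50.0 kb. The peak with a pileup of 1097 (interval 1033 to 1164, 143-fold) lay 2100 bp outside the nearer end of *Pramel19*. The peak with a pileup of 761 (interval 708 to 817, 152-fold) lay 2110 bp outside the nearer end of *Pramel18*. Background was above the floor at 13 of these 15 summits and reached 11.2 fragments. The adjoining window had 8 summits of 21 to 261 and reached into *Pde4b*, a cyclic AMP phosphodiesterase.

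*Zscan4c*, a zinc finger and SCAN domain gene of the early cleavage embryo, had a tall promoter peak in a window of only 8 summits, chr7:11000001-11100000. The peak at its promoter had a pileup of 924 (interval 865 to 986) at 178-fold, 188 bp upstream of the start. A peak of 533 (interval 488.7 to 580) lay 313 bp from the pseudogene *Zscan4-ps1*. The other 6 summits had pileups of 25 to 95. Of 4 protein-coding *Zscan4* members, *Zscan4c* alone overlapped a dense window.

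The *Usp17l* deubiquitinases lay in a run of 2 windows, chr7:104700001-104900000, with 20 summits, and 3 of 5 protein-coding members overlapped it. Of all protein-coding genes 1.76% overlapped a dense window, and neighbouring members are not independent counts. *Usp17le* had 4 summits inside its span, at 55, 860, 481 and 255. The 860 peak (interval 803 to 919) was 73.9-fold over a background of 10.7 fragments, and the 481 peak was 85.5-fold over 4.63. At *Usp17la* the tallest summit, 232, was inside the gene, and at *Usp17lb* a summit of 230 lay 976 bp outside. With summits within 1.5 kb counted once, 1 member overlapped a dense window.

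Hairpins of the miR-344 cluster lay in windows of tall peaks and low background. The window chr7:61700001-61800000 had 16 summits with a median pileup of 150, the largest median among the 340 dense windows other than the one at the start of chromosome 9. Pileups went from 18 to 367, 10 of the 16 reached 100, and all had a background at the floor. Its neighbour held 10 summits of 13 to 573. No protein-coding gene overlaps either window, and 14 of the 16 summits lay inside the long non-coding RNA *A230057D06Rik*.

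Upstream of the hairpin's 5′ end, the nearest summit was 38 bp away at *Mir344d-1*, with a pileup of 107 (interval 87.7 to 129). It was 60 bp away at *Mir344d-2*, with a pileup of 573 (interval 527 to 622). It was 77 bp away at *Mir344d-3* (pileup 235), 83 bp at *Mir344e* (pileup 89) and 95 bp at *Mir344h-1* (pileup 154). These 5 hairpins thus had a summit just before them, at pileups that differed by several fold. The nearest summit was 895 bp upstream at *Mir344h-2* (pileup 348), and at *Mir344b* it was 592 bp downstream of the 5′ end, with a pileup of 18.

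Hairpins outside dense windows showed the same spacing in part. *Mir344* had a summit at 32 bp (pileup 54) and *Mir344g* at 86 bp (pileup 60), so 7 of 13 hairpins in all had a summit within 100 bp upstream. *Mir344c* and *Mir344-2* had summits at 148 and 168 bp, with pileups of 192 and 227. *Mir344f* and *Mir344i* had none within 6 kb.

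**Figure D4:**
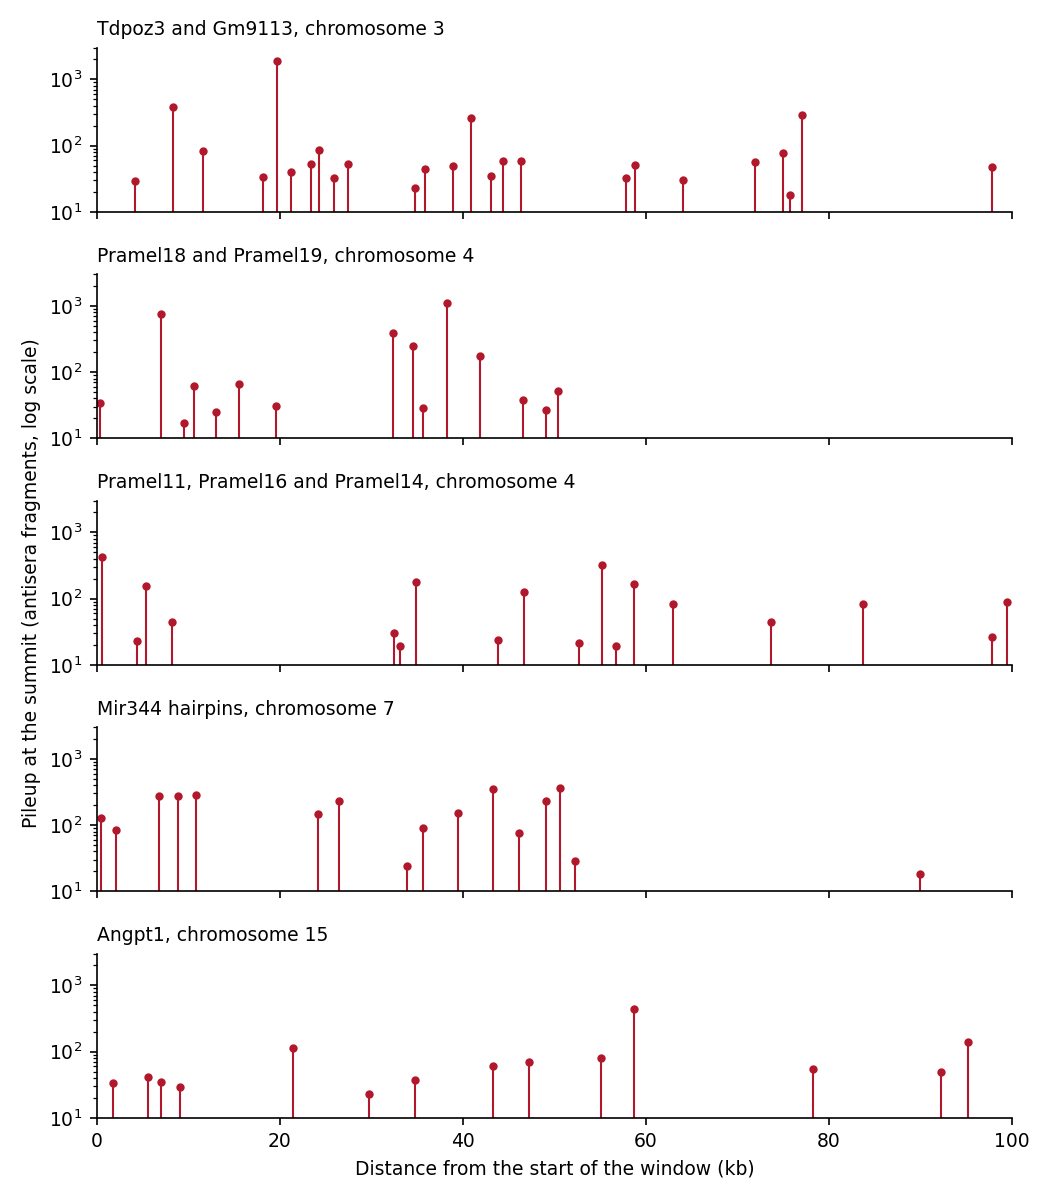
Pileup at each summit (y axis, antisera fragments, log scale) against distance in kb from the start of the window, for 5 dense windows with 14 to 25 summits each. The Tdpoz3 and Prame-like windows hold a few peaks over 300 among many under 100. In the Angpt1 window only the tallest peak, 445, exceeds 300, and most are under 100. In the Mir344 window 10 of 16 summits reach 100.

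Oocyte-specific homeobox genes (*Obox*) lay in 3 windows of chromosome 7 with lower peaks. The run chr7:15700001-15900000, with *Obox5*, *Obox6* and the photoreceptor homeobox gene *Crx*, held 18 summits, the tallest at 133. The window chr7:14500001-14600000, with *Obox4* pseudogenes, held 8 summits of 24 to 77. Of 6 protein-coding *Obox* genes 2 overlapped a dense window, against 1.76% of all protein-coding genes, and of all 53 annotated members 6 did. These are neighbours and not independent counts.

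Histone genes had the largest number of members in dense windows of the 41 families, an order that turned with the settings: on the grid moved by 50 kb 8 histone and 10 Prame-like genes overlapped a dense window, and with a limit of 10 summits 0 histone and 8 Prame-like genes did. Of 58 protein-coding core histone genes, 29 overlapped a dense window (50.0%), against 1.76% of all protein-coding genes. They lay in 3 windows: chr13:23500001-23600000 with 14, chr3:96200001-96300000 with 10 and chr13:22000001-22100000 with 5. These genes are short and packed, so a window takes in many at once, and neighbours are not independent counts. The window of 14 core histone genes had 9 summits of 22 to 63, and all 9 had a background at the floor. The tallest of them, 63 (interval 48.4 to 80.6), lay 52 bp upstream of the linker histone gene *H1f3*. In the window of 5 core histone genes the 8 summits were at 22 to 143, and the 143 peak, 28.7-fold, lay 1050 bp from *H4c9*. On chromosome 3 the tallest were 374, 204 and 159, the last 230 bp upstream of *H2ac19*. Of the other histone promoters with a summit, *H3c8* had 43, *H3c6* had 35, *H2bc9* had 29 and *H2ac21* had 21.

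Transfer RNA genes, many of which lie among the histone genes, were also common in dense windows. Of 391, 47 overlapped a dense window (12.0%), against 1.48% of long non-coding RNA genes, 1.67% of pseudogenes and 1.76% of microRNA genes. They sat in 4 windows, 39 of them in the 3 on chromosome 13. The nearest summit was a median of 2345 bp away from these 47 genes and 10554 bp from the 344 others. Dense windows were chosen for many summits, so a shorter distance there is set in large part by the rule. A summit within 200 bp was found at 5 of the 47 and at 12 of the 344, a larger share in dense windows. The rule bears on this share as well. The summits at chr13:21900001-22000000, where 19 of them lie, had pileups of 19 to 65 except 1 of 304 inside *Zfp184*, a zinc finger gene.

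Some clusters of interferon, interferon-inducible and chemokine genes lay in dense windows. None of 71 protein-coding defensin genes, 38 *H2*, 37 *Ly6*, 33 *Clec*, 29 *Klr*, 15 *Mcpt* and 8 *Gimap* genes did. The upper interval limits of these counts were 5.06 to 36.9%, over the 1.76% of all protein-coding genes. These counts of 0 therefore do not set the families apart from that share. The window chr4:88600001-88700000 held 5 of 18 protein-coding type I interferon genes together with *Pramel32*. Its 9 summits had pileups of 21 to 212, and the 212 peak (interval 184 to 243) lay 109 bp upstream of *Pramel32*, while the interferon genes had 162 as the tallest, 3216 bp from *Ifna13*. With summits within 1.5 kb counted once, or with a limit of 10, this window was not dense and the count of interferon genes was 0. The window of *Ifi211*, *Ifi203* and *Ifi202b*, interferon-inducible nucleic acid sensors, held 8 summits of 47 to 310, and 6 of them were inside a gene. The window of the chemokine genes *Ccl2*, *Ccl7* and *Ccl11* had 8 summits of 24 to 435 with a median of 137, and none was inside a gene. *Ccl3* and *Ccl4* lay in a run of 17 summits on chromosome 11, and *Fas*, a death receptor, with *Ch25h* and *Lipa* in a run of 17 on chromosome 19.

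All 9 *Ugt1a* members in the list, which encode glucuronidation enzymes, overlapped 1 window, chr1:88200001-88300000, because they share 1 locus with common downstream exons. Most of their spans begin below the window and reach it only with their upper end, so they count as 1 locus. The window had 9 summits of 34 to 294. The 2 tallest, 294 and 288, lay 536 and 2753 bp outside *Ugt1a10*, at 19.6-fold and 21.5-fold over backgrounds of 14.02 and 12.5 fragments. Background was above the floor at all 9 summits, and after removal of peaks with a background of 10 or more the window was no longer dense.

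Of 41 families examined, 25 had no protein-coding member in a dense window, 16 had at least 1, and 8 had 3 or more members, pseudogenes included, in 1 window. The upper interval limit of each of the 25 was 2.95% or more, over the 1.76% of all protein-coding genes. A count of 0 therefore does not place any of them below that share. Among large families, 4 of 1104 protein-coding olfactory receptor genes overlapped a dense window (0.362%, interval 0.0988 to 0.925%). So did 2 of 231 *Vmn1r* pheromone receptor genes (0.866%, interval 0.105 to 3.09%) and 2 of 388 *Zfp* genes (0.515%, interval 0.0625 to 1.85%). Only the olfactory receptor interval lay below the 1.76% of protein-coding genes, and the other intervals contain it. Neighbouring genes are not independent counts, so these intervals are too narrow.

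Long genes were another setting, though not one particular to dense windows. Summits inside a protein-coding gene made up 36.3% in dense windows and 40.2% in the remaining windows. The 363 protein-coding genes that overlapped a dense window had a median length of 30598 bp, against 17491 bp for all 20661, and a longer gene overlaps more windows. In 81 windows all summits lay inside a gene of any kind, coding or not, and in 80 none did. *Prkg1*, a cyclic GMP-dependent kinase, held 20 dense-window summits in 2 windows, *Csmd3* 19, *Adamtsl1* 18, *Adgrl3*, an adhesion receptor, 18 in 3 windows, and *Ppfia2* and *Spag16* 17 each. In all, 10 genes reached into 2 or more dense windows.

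Peaks in the long-gene windows given here also differed widely in height. They reached at most 630, against 1922 in the *Tdpoz3* window. *Angpt1*, the ligand of the Tie2 receptor, held all 14 summits of chr15:42500001-42600000, at 23 to 445. *Kcnip4*, a potassium channel partner, held all 11 of chr5:48400001-48500000, at 22 to 630, with a second at 538. *Fut9*, a fucosyltransferase, held 11 of 16 to 600 and *Niban1* 11 of 14 to 152. At *Ptprd*, a receptor phosphatase, a window of 13 summits had 21 to 186, of which 2 summits lay inside the gene.

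Other dense windows held few genes or none. In 122 windows no protein-coding gene was found, in 151 there was 1, in 37 there were 2 and in 31 there were 3 or more, up to 15 in the histone window. In 44 windows no gene of any kind was annotated, and the largest pileup among these was 459, at chr4:92600001-92700000. In chr3:137200001-137300000, 11 of the 14 summits lay outside *Gm567*, with pileups up to 291. In chr4:84800001-84900000, all 14 summits, of 23 to 153, lay outside genes near *Cntln*, which encodes a centrosomal protein. The 12 summits of chr9:92300001-92400000, of 19 to 167, lay in and beside *1700057G04Rik*.

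Chromosomes 4 and 15 held more dense windows than the other autosomes. On chromosome 4, 51 of 1251 windows with a summit were dense (4.08%, interval 3.05 to 5.33%), and on chromosome 15, 38 of 918 (4.14%, interval 2.95 to 5.64%). On the other 17 autosomes 252 of 16832 were dense (1.5%), with a range of 0.744 to 2.33% per chromosome. These 2 chromosomes thus held 26.1% of dense windows. They also had raised local background: on chromosome 4 it was over the floor at 40.2% of all peaks, on chromosome 15 at 79.3%, and on each of the others at 12.7 to 17.4%. The part of this background in the count of dense windows was not tested, and the Prame-like and interferon windows all lie on chromosome 4.

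Within each set of chromosomes the share of high peaks was larger in dense windows. On chromosomes 4 and 15 a pileup of 100 or more was found at 21.4% of dense-window peaks (interval 18.7 to 24.3%). Among the remaining peaks there it was 17.9% (interval 16.9 to 18.9%), so the intervals overlapped. On the other 17 autosomes it was 20% of dense-window peaks and 13.8% of the remaining peaks. Peaks of 1 window are not independent, so these intervals are too narrow. Background above the floor stood at 55.2% of dense-window peaks and 57.4% of the remaining peaks on chromosomes 4 and 15, and at 16.8% of dense-window peaks and 15% of the remaining peaks on the others. The pooled shares, 27.1% of dense-window peaks and 20.4% of the remaining peaks, differed more than either, with more of the dense windows on those 2 chromosomes.

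**Figure D5:**
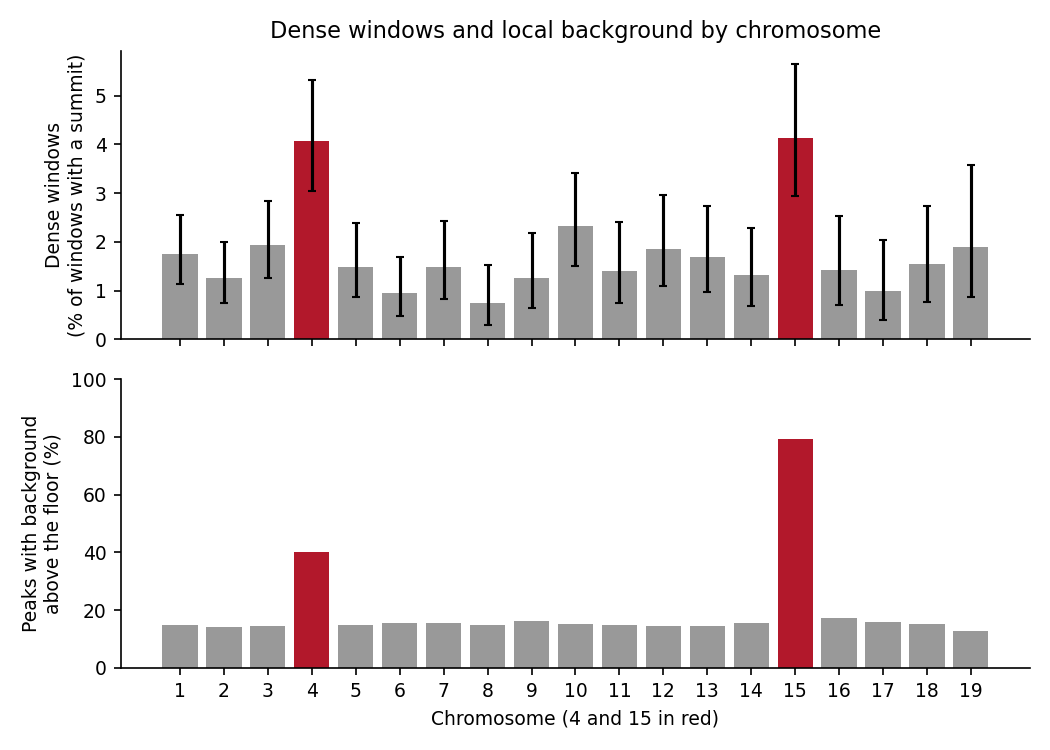
Top, dense windows as a percentage of windows with a summit on each chromosome, with 95% exact binomial intervals, and bottom, percentage of all peaks with a local background above the floor of 4.01 fragments. Chromosomes 4 and 15 (red) reach 4.08% and 4.14% dense windows and 40.2% and 79.3% of peaks above the floor.

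One window stood apart from the rest. At chr9:3000001-3100000, near the start of chromosome 9, 21 summits had a summed pileup of 62050, with *Mir101c* as the only gene. The peak with a pileup of 27027 had a fold of only 5.19, because the background there was 5204 fragments. In this window, 10 of the 21 peaks had a background of 10 or more fragments, and only 11 other dense-window peaks had one. Without it, the largest pileup in a dense window was 1922 and the largest summed pileup 3850, while the median pileup stayed at 44.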

How the data were processed

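1 antisera library and 1 control library were grouped by the antibody label. Per the submitters' processing notes, reads were handled with BWA and MACS2 on mm10. Peaks were called once by the authors with MACS 2.1.0.20151222, per the file headers, at a q-value limit of 0.01, keeping 1 fragment per position: 26253175 of 32659686 antisera fragments (20% redundant) and 23412256 of 40115471 control fragments (42% redundant) remained. The deposited pileup is a signal per summit, the deposited −log10 p and −log10 q values are the caller's scores, and the deposited fold is a ratio with a pseudocount of 1. The sources used here do not give mapping filters.

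Local background was recovered from pileup and fold, and values more than 0.01 above its lowest level, 4.01, count as above the floor. Summits were assigned to 100 kb windows. RefSeq spans (GRCm38.p6, the primary assembly of mm10, matched by position; no strand or exons) gave genes, 41 families were defined by symbol, and promoter and microRNA sequences came from the RefSeq tables of that build. Intervals are exact Poisson for pileups and exact binomial for shares, at 95%.

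The windows described were the 12 with most summits and the 10 with the largest summed pileup, and families with 3 or more members in 1 window or run; in each, the tallest and lowest peaks are given. The members and lists were chosen with earlier results of these data known, and the words searched in promoters, the chromosome 3 copies, the hairpin distances, the transfer RNA genes and other windows were chosen after their values were seen. Alternatives were a grid moved by 50 kb, limits of 7 or 10 summits, −log10 q of 5 or 10 or more, merging summits within 1.5 kb, leaving out chromosomes 4 and 15, and leaving out peaks whose background was at least 10. The window assignment was tested on simulated data. Python 3.11.15, pandas 2.3.3, numpy 2.4.6, scipy 1.17.1 and matplotlib 3.10.9 were used.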

Additional observations from a re-analysis of the deposited data

Results flagged for a closer look

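The X chromosome lay outside the windows studied, and the comparisons did not use it. Of its 1066 windows with a summit, 3 held 8 or more summits, or 0.281%. This was a smaller share than the 1.79% of autosomal windows, and smaller than the 0.744% of chromosome 8, the lowest autosome. The reason for the smaller share was not tested. The window chrX:56700001-56800000, with *Fhl1*, a LIM domain gene of muscle, and *Map7d3*, had 9 summits of 19 to 577. The window chrX:132300001-132400000 had 9 summits of 21 to 285 and no protein-coding gene. The window chrX:169900001-170000000, in *Mid1*, a ubiquitin ligase gene, had 8 summits of 26 to 166.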

How the results depend on the processing

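Of 9 alternatives, 8 were planned and 1, removal of the window at the start of chromosome 9, was chosen after seeing the data. The windows and peaks numbered 659 and 5313 with a limit of 7 summits, 87 and 970 with 10 summits, 162 and 1433 at −log10 q of 10 or more, and 209 and 1853 with summits within 1.5 kb counted once. At −log10 q of 10 or more the median pileup was 52 and the median fold 9.84, as weaker peaks are left out. The share with background above the floor was 24.03% on the moved grid, 31.2% with 10 summits and 16.8% without chromosomes 4 and 15. The other 5 alternatives gave 252 to 358 windows, and the share of summits inside a gene stayed at 45.7 to 47.6% in all 9. Family counts depended on the grid: with windows moved by 50 kb, 8 core histone genes and 0 *Ugt1a* members overlapped a dense window, against 10 Prame-like and 4 *Usp17l* genes. With 10 summits as the limit 0 histone genes did, and 8 Prame-like genes did. No paired analysis was possible because each group has 1 library. The depth of 1 antisera library limits all values, and the number of summits in a window can only be read at that depth.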
